A study of Danio rerio with 69 samples.

Results

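The genes described here are the photolyase-family genes cry5, cpdp and cry-dash and the DNA repair genes neil1 and ddb2 of zebrafish (Danio rerio). They were taken by name: each probe set whose symbol in the platform annotation was one of these 5 belonged to the group. That gave 7 probe sets of the 15502 tested, for 5 genes of 8793 with a single symbol. The genes cry5 and cry-dash had 2 probe sets each, and the one of higher mean level represented the gene.

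Ultraviolet light joins neighbouring pyrimidines in DNA, and oxidation alters single bases. Photolyases are flavin enzymes that split the ultraviolet lesions with the energy of visible light, and cryptochromes are their relatives, several of which act in the circadian clock. In zebrafish many tissues sense light directly, and light switches on a set of genes in them that holds both clock and DNA repair genes. The pineal gland, at the roof of the brain, has photoreceptor cells of its own and makes melatonin at night.

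Expression was measured on 69 Affymetrix Zebrafish Genome Arrays, 1 sample each, 38 from pineal gland and 31 from brain freed of pineal and eyes. The pineal donors were transgenic fish with green fluorescent protein driven by the aanat2 promoter, which marked the gland for dissection by hand. The labels do not say whether the brains came from the same fish, how many fish went into a sample, or the hour of sampling within day and night. All fish were kept at 28.5 °C with 14 h of light and 10 h of dark. Each tissue was sampled in the light and in the dark from larvae of 3, 5 and 10 days and from adults of 3 months and of 1 to 2 years. In that order of ages there were 3, 5, 4, 3 and 4 pineal arrays by day and 4, 4, 4, 3 and 4 by night. Brain had 3 arrays by day at every age, and 4, 2, 4, 3 and 3 by night. Values below are log2 of the deposited intensity plus 16 after quantile normalization, and errors are standard errors (SE) of the limma fit unless SD is named. A comparison of night with day was called at an adjusted p below 0.05 over all 15502 probe sets, and one of levels also needed a 2-fold difference. The share of all probe sets at an unadjusted p below 0.05 was not counted. Counts of genes at that unadjusted limit are therefore descriptions only. These are whole tissues, so fewer cells of a type and less RNA per cell cannot be told apart.

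The tissue labels held against their markers: 9 of 9 pineal photoreceptor genes were higher in pineal than in brain, with a median difference of 4.12. Summed, these 9 lay at 10242 to 123375 intensity units on pineal arrays and at 403.5 to 6424 on brain arrays, the highest of these being 3mo brain day replicate 3. Larval brain arrays carried muscle markers, whose 5 genes summed to between 3556 and 40459 units, against 208.9 to 533.9 in adult brain. Pineal arrays carried skin markers, whose 5 genes summed to 20118 to 107581 units in larvae and 18385 to 99908 in adults. In brain the skin sum was 8369 to 45986 units in larvae and 846.3 to 7410 in adults. Of the 5 skin genes, 4 were called higher in pineal than in brain, with a median difference of 2.09. The part of these markers in the values below was not tested. RNA quality was uneven between day and night. The GAPDH control probes give a 3'/5' ratio that is high where RNA is degraded. It exceeded 3 on 10 of the 34 arrays from day and 1 of the 35 from night, among them 6 of the 15 brain day arrays and 0 of the 16 brain night arrays.

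All 5 genes were lower at night than by day in pineal when the 5 ages were averaged (limma, 19 night and 19 day arrays). Of all probe sets, 1.3% were called lower in that comparison. The fall was 2.26-fold for neil1, 2.03-fold for cry5, 1.71-fold for cpdp, 1.7-fold for cry-dash and 1.44-fold for ddb2. In brain the 5 genes were also lower at night (16 night and 15 day arrays), where 0.548% of probe sets were called lower, by 3.11-fold for cry5, 2.74-fold for neil1, 1.97-fold for cry-dash, 1.87-fold for cpdp and 1.83-fold for ddb2. Of all probe sets, 0.303% were called lower in both tissues, 47 in number with these 5 among them. The 5 genes were chosen with earlier results of these data known, so their place among the 47 is a description only. Each of these 10 calls was kept when any 1 of the 69 arrays was left out. The brain calls of cry5 (-1.29, adjusted p = 0.0661), cry-dash (-0.78, adjusted p = 0.188) and ddb2 (-0.67, adjusted p = 0.0742) were lost when the 11 arrays of high GAPDH ratio were left out together, and that of cry-dash also with the ratio as a covariate (-0.74, adjusted p = 0.102). The 5 pineal calls were kept in both fits. Leaving out the arrays of high ratio left replicate 3 as the only brain day array at 3 months and at 1 to 2 years. In the fit without the 11 arrays, the lost brain calls can therefore not be laid to RNA quality apart from the loss of arrays. The covariate fit kept all 69 arrays, and why cry-dash lost its brain call there was not tested. In pineal, ddb2 missed the threshold when pineal arrays alone were fitted (-0.52, adjusted p = 0.0563). Without the 5-day arrays, 2 of 5 genes were called in pineal (cpdp and neil1) and 3 of 5 in brain (all but cry-dash and ddb2), and without the 10-day arrays 3 of 5 in pineal (all but cry-dash and ddb2).

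The falls passed the test in larvae. Averaged over 3, 5 and 10 days, the night-day difference in pineal was -1.55 ± 0.21 for neil1, -1.30 ± 0.31 for cry5, -1.11 ± 0.22 for cry-dash, -0.997 ± 0.19 for cpdp and -0.82 ± 0.16 for ddb2. All 5 were called, beside 0.722% of probe sets called lower. In larval brain it was -2.08 ± 0.35 for cry5, -1.81 ± 0.24 for neil1, -1.58 ± 0.25 for cry-dash, -1.53 ± 0.18 for ddb2 and -1.31 ± 0.21 for cpdp, all called, beside 0.29% of probe sets. These larval averages were added after the single ages had been seen. They kept their calls under each alternative that tested them, without the 11 arrays of high GAPDH ratio too. They were not tested in the fits that left out an age, and cry5 was not tested under the filter on mean intensity.

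**Figure D1:**
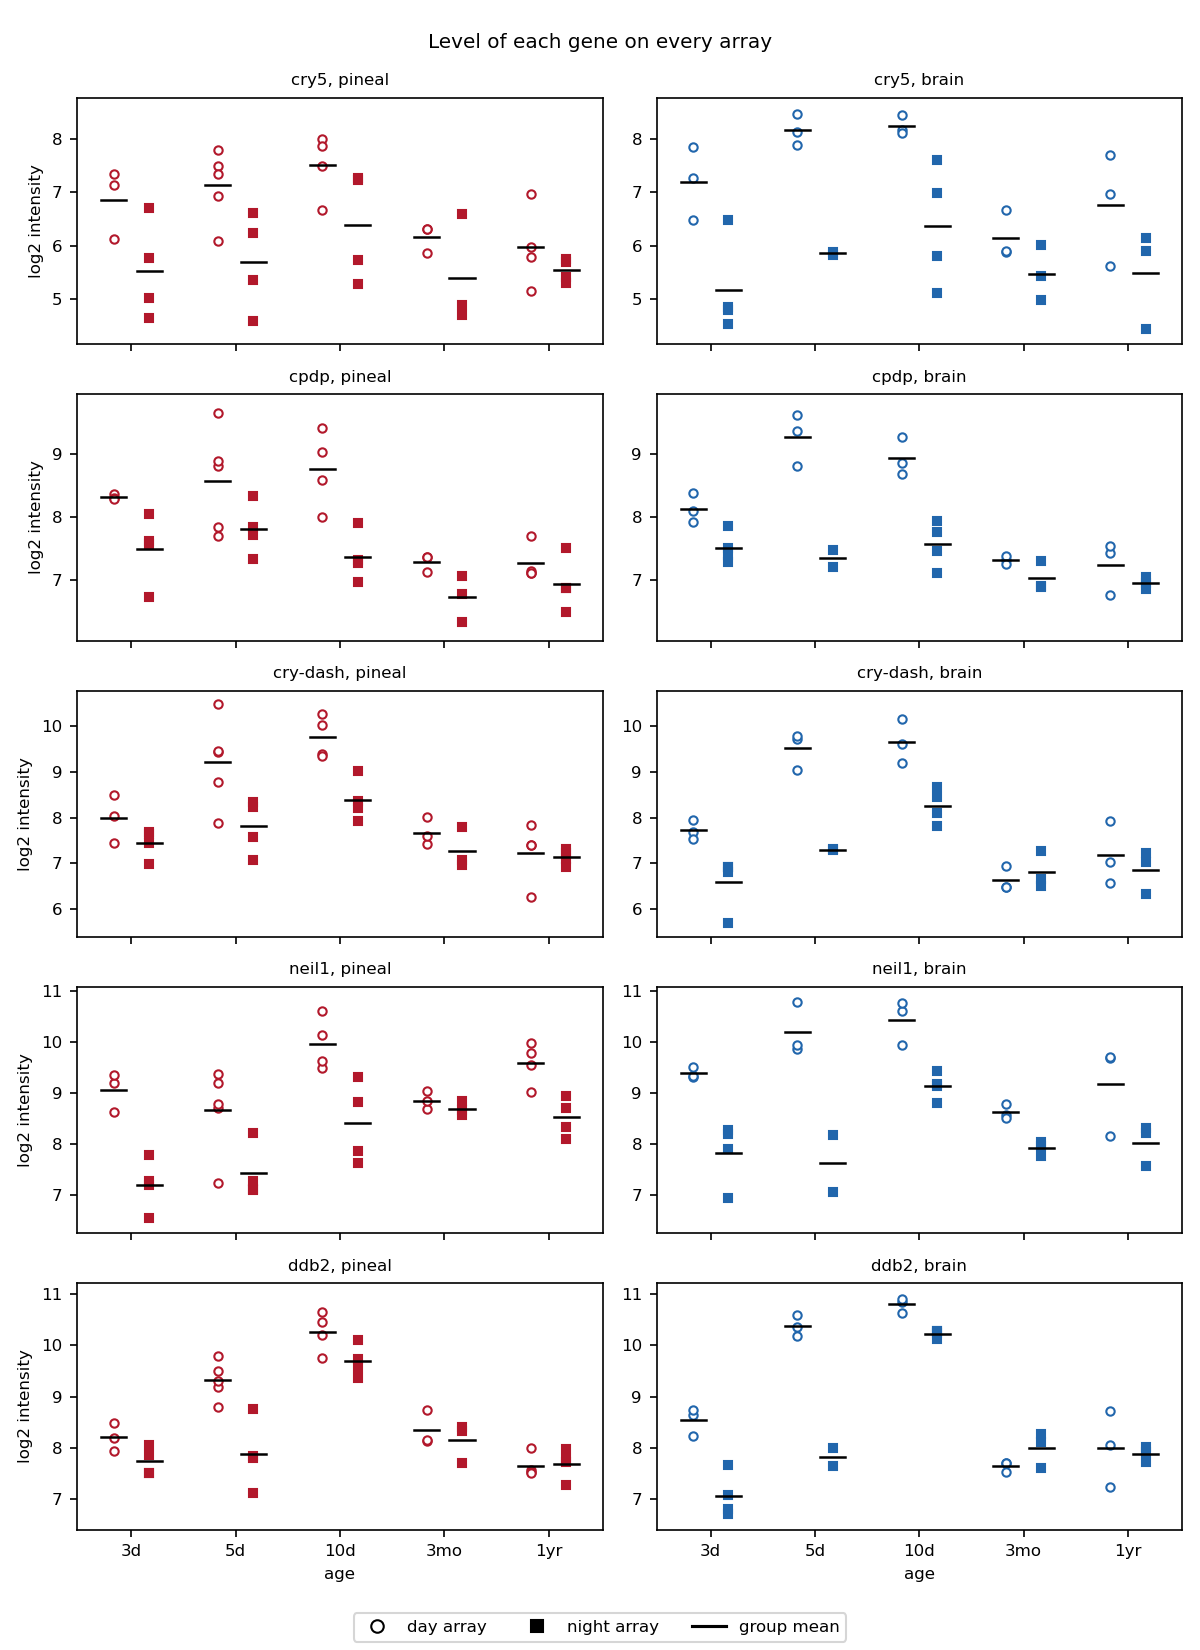
Level of the 5 genes on every array (y axis, log2 intensity after quantile normalization; x axis, age), with pineal on the left and brain on the right. Open circles are day arrays, filled squares night arrays and bars group means; in larval brain every night array lies below every day array for each gene, and in adult brain this holds for neil1 at 3 months alone.

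The photolyase gene cry5, which RefSeq also lists under a photolyase synonym, encodes the enzyme for pyrimidine-pyrimidone photoproducts. At 3 days in pineal it was at 7.34, 7.14 and 6.12 by day and at 4.64, 5.01, 6.70 and 5.77 by night. At 5 days it was at 7.50, 7.80, 6.92, 6.09 and 7.35 by day and at 4.59, 6.24, 5.35 and 6.61 by night. At 10 days the pineal arrays had 7.99, 6.68, 7.87 and 7.49 by day and 7.27, 7.24, 5.28 and 5.73 by night. The night means were lower at all 3 ages, with differences of -1.33 ± 0.57, -1.44 ± 0.50 and -1.13 ± 0.53, but day and night arrays overlapped at each, and no single age was called (adjusted p of 0.25, 0.214 and 0.358). In brain cry5 was at 7.86, 7.27 and 6.49 by day and at 4.54, 4.84, 6.49 and 4.79 by night at 3 days. The 5-day brain had 8.47, 8.14 and 7.89 by day and 5.88 and 5.83 by night. The 10-day brain had 8.46, 8.16 and 8.12 by day and 5.81, 7.61, 5.10 and 6.98 by night. Here every night array lay below every day array, at 3 days with the nearest arrays of both times at 6.49. Brain differences were -2.04 ± 0.57, -2.31 ± 0.68 and -1.87 ± 0.57, none of them called at its own age (adjusted p of 0.147, 0.285 and 0.622). In adults cry5 spanned 5.15 to 6.98 by day and 4.70 to 6.59 by night in pineal. It spanned 5.61 to 7.71 and 4.44 to 6.14 in brain, with day and night overlapping. This is the dimmest of the genes, below 100 intensity units on 44 of 69 arrays, so its size depended on the added constant.

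The gene cpdp encodes the photolyase for cyclobutane pyrimidine dimers, the most common ultraviolet lesion. In 3-day pineal it was at 8.36, 8.31 and 8.28 by day and at 7.62, 7.57, 6.73 and 8.06 by night. In 5-day pineal it was at 7.84, 9.66, 7.70, 8.82 and 8.90 by day and at 7.72, 7.84, 7.34 and 8.34 by night. In 10-day pineal it was at 9.42, 8.01, 8.59 and 9.04 by day and at 6.97, 7.27, 7.91 and 7.32 by night. The groups were separate at 3 and 10 days and overlapped at 5 days. The 10-day difference of -1.40 ± 0.32 was called (adjusted p = 0.0217), with 0.29% of probe sets called lower at that age, but not when pineal arrays alone were fitted (adjusted p = 0.17) or without 10d pineal day replicate 1, night replicate 1 or night replicate 4. At 3 and 5 days the differences of -0.82 ± 0.35 and -0.77 ± 0.30 were not called. Brain levels of cpdp at 3 days were at 7.92, 8.10 and 8.39 by day and at 7.29, 7.40, 7.86 and 7.51 by night. Those at 5 days were at 9.63, 9.37 and 8.81 by day and at 7.48 and 7.20 by night. Those at 10 days were at 8.86, 9.28 and 8.69 by day and at 7.77, 7.93, 7.11 and 7.46 by night. Night lay below day throughout, and the 5-day difference of -1.93 ± 0.41 was called (adjusted p = 0.0159), a call lost without any 1 of 4 of the 5 arrays at that age. In adult pineal cpdp spanned 7.10 to 7.69 by day and 6.33 to 7.51 by night. In adult brain the spans were 6.76 to 7.54 and 6.86 to 7.30.

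The gene cry-dash encodes a cryptochrome of the DASH group, whose relatives in other organisms repair pyrimidine dimers in single-stranded DNA. At 3 days its pineal values were 8.49, 7.44 and 8.03 by day and 7.69, 7.63, 6.98 and 7.44 by night. At 5 days they were 9.44, 10.48, 7.87, 8.78 and 9.46 by day and 8.24, 7.07, 8.35 and 7.58 by night. At 10 days they were 9.39, 10.27, 9.34 and 10.03 by day and 8.36, 9.02, 7.93 and 8.20 by night. Only at 10 days did every night array lie below every day array. The differences were -0.55 ± 0.40, -1.40 ± 0.35 and -1.38 ± 0.37, and that at 5 days was called at adjusted p = 0.0488, with 0.29% of probe sets called lower. It is a borderline call, lost when any 1 of 51 of the 69 arrays was left out. The 10-day difference (adjusted p = 0.0605) was called without any 1 of 4 arrays, among them 10d pineal day replicate 1. In brain cry-dash stood at 7.95, 7.69 and 7.53 by day and at 6.82, 6.91, 5.69 and 6.91 by night at 3 days. The 5-day brain arrays were at 9.71, 9.78 and 9.05 by day and at 7.28 and 7.32 by night. The 10-day brain arrays were at 10.16, 9.62 and 9.18 by day and at 8.45, 8.68, 8.10 and 7.81 by night. Night was below day on all larval brain arrays, with differences of -1.14 ± 0.40, -2.22 ± 0.48 and -1.39 ± 0.40. The 5-day fall was called (adjusted p = 0.0168), though not without any 1 of 4 of its 5 arrays or without the arrays of high GAPDH ratio (adjusted p = 0.0543). Adult pineal ran from 6.26 to 8.01 by day and 6.92 to 7.79 by night. Adult brain ran from 6.49 to 7.93 and 6.32 to 7.26, with day and night overlapping.

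The gene neil1 encodes a glycosylase that cuts oxidized bases out of DNA, the first step of base excision repair. At 3 days in pineal it was at 9.20, 9.35 and 8.63 by day and at 7.27, 7.20, 6.55 and 7.77 by night. At 5 days its pineal arrays read 8.70, 7.23, 8.79, 9.37 and 9.19 by day and 7.12, 8.21, 7.10 and 7.28 by night. At 10 days they read 10.13, 10.60, 9.49 and 9.63 by day and 7.86, 7.63, 8.81 and 9.32 by night. Day and night were separate at 3 and 10 days, and at 5 days 5d pineal day replicate 2 lay among the night arrays. The difference of -1.87 ± 0.39 at 3 days was called (adjusted p = 0.00584, 3.65-fold, 0.581% of probe sets called lower) and was kept without any 1 array. That of -1.56 ± 0.36 at 10 days was also called (adjusted p = 0.0222). It was lost without 10d pineal day replicate 2, whose GAPDH ratio was 10.4, without night replicate 1 or night replicate 2, and without all arrays of high ratio (-1.09, adjusted p = 0.191). It was lost as well when pineal arrays alone were fitted (adjusted p = 0.0917) and with array weights (adjusted p = 0.131). At 5 days the difference was -1.23 ± 0.34 (adjusted p = 0.0956), and it was called without 5d pineal day replicate 2 (-1.58, adjusted p = 0.011).

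Brain levels of neil1 at 3 days were 9.52, 9.32 and 9.33 by day and 8.27, 8.20, 6.94 and 7.91 by night. At 5 days they stood at 9.87, 10.78 and 9.95 by day and at 8.18 and 7.07 by night. At 10 days they stood at 10.60, 10.76 and 9.94 by day and at 8.81, 9.43, 9.18 and 9.14 by night. Night was below day on every array, with differences of -1.56 ± 0.39, -2.58 ± 0.47 and -1.29 ± 0.39. The 5-day fall, of 5.96-fold, was called (adjusted p = 0.00118, with 0.142% of probe sets called lower), but adjusted p was 0.626 without 5d brain night replicate 2, which left a single night array. In 1-to-2-year pineal neil1 was at 9.79, 9.99, 9.02 and 9.54 by day and at 8.71, 8.94, 8.10 and 8.33 by night, with the groups apart and a difference of -1.06 ± 0.36 that was not called (adjusted p = 0.251). In 3-month brain it was at 8.57, 8.77 and 8.52 by day and at 7.76, 7.97 and 8.04 by night, again apart and not called (-0.70 ± 0.42). The 3-month pineal arrays, at 8.68, 8.84 and 9.03 by day and at 8.84, 8.56 and 8.66 by night, overlapped.

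The gene ddb2 encodes the protein that finds ultraviolet lesions in chromatin and passes them to nucleotide excision repair. In pineal at 3 days it was at 8.19, 7.94 and 8.49 by day and at 7.52, 7.52, 7.87 and 8.06 by night. At 5 days pineal ddb2 was at 9.18, 8.80, 9.31, 9.50 and 9.80 by day and at 7.11, 7.81, 8.77 and 7.84 by night. At 10 days pineal ddb2 was at 10.65, 10.46, 9.75 and 10.20 by day and at 9.56, 9.73, 9.37 and 10.10 by night. The groups were separate at 5 days only, where the difference of -1.43 ± 0.26 was called (adjusted p = 0.00122, 2.7-fold) and kept without any 1 array. The differences at 3 and 10 days, -0.46 ± 0.30 and -0.58 ± 0.28, were not called. In brain at 3 days ddb2 was at 8.65, 8.74 and 8.23 by day and at 7.08, 7.66, 6.82 and 6.71 by night. At 5 days brain ddb2 was at 10.18, 10.60 and 10.36 by day and at 7.65 and 8.004 by night. At 10 days brain ddb2 was at 10.85, 10.62 and 10.91 by day and at 10.11, 10.27, 10.23 and 10.28 by night. Night lay below day at each of these ages. The 5-day difference of -2.55 ± 0.36 (5.87-fold, adjusted p = 4.45e-06) was kept without any 1 array. The 3-day difference of -1.47 ± 0.30 (adjusted p = 0.0212, with 0.0387% of probe sets called lower) was lost without any 1 of 5 of its 7 arrays and with median centring (adjusted p = 0.0507), and that of -0.57 ± 0.30 at 10 days was not called. Adult ddb2 in pineal spanned 7.50 to 8.73 by day and 7.28 to 8.41 by night, and adult brain 7.23 to 8.72 and 7.60 to 8.27.

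Counted over the 5 genes, every night array lay below every day array for all 5 in brain at 3, 5 and 10 days. Among all probe sets this held for 6.67%, 10.8% and 3.66%. In pineal it held for cpdp and neil1 at 3 days (6.27% of probe sets), for ddb2 at 5 days (0.91%) and for cpdp, cry-dash and neil1 at 10 days (1.95%). In adults it held for cpdp in 3-month pineal (6.85%), neil1 in 1-to-2-year pineal (2.7%) and neil1 in 3-month brain (7.59%), and for 0 of 5 genes in 1-to-2-year brain (8.99%). The night mean was below the day mean at all 5 ages for 4 of 5 genes in pineal (all but ddb2; 4.35% of probe sets) and for cry5, cpdp and neil1 in brain (4.77%). Of the 25 pairs of a gene and an age, limma called 5 lower at night in pineal and 5 in brain. Of all probe sets, between 0.0968% and 0.581% were called lower at a single age in pineal, and between 0.0387% and 0.226% in brain. In 10-day brain 0 of 5 genes were called despite the separate groups, with 0.0516% of probe sets called lower, and 4 had an unadjusted p below 0.05. Several marker sums separated day from night in larvae as well, and some did so in adults. In 5-day brain the muscle markers summed to 30331 to 40459 units by day and 17424 to 19084 by night, and the skin markers to 32240 to 45986 and 20704 to 29829. There the astroglia markers were also lower at night (13559 to 16344 against 12551 to 13342) and the red cell markers higher (801.4 to 1580 against 1695 to 3714), while in 3-day brain the red cell markers were lower (6964 to 10250 against 4305 to 5921). In 3-day pineal the pineal photoreceptor markers summed to 27516 to 51730 units by day and 15883 to 22531 by night, and the neuron markers to 12535 to 13920 and 19278 to 22100. The retinal photoreceptor and lens markers summed to 4430 to 6370 units by day and 1500 to 2624 by night in 3-day pineal, to 6329 to 14595 and 1550 to 2473 in 5-day pineal, and to 715.6 to 1190 and 338 to 708.7 in 10-day brain. In 3-month pineal the retinal and lens markers summed to 32475 to 41435 units by day and 19241 to 25646 by night. In 3-month brain they summed to 1028 to 13410 and 160.4 to 349.8. The immune markers were lower at night in 3-month brain (3314 to 3989 against 2667 to 3236), and the red cell markers higher in 3-month pineal (17359 to 21284 against 24661 to 45234). Some of these markers differed between night and day as single genes. Averaged over the 5 ages, 1 of the 7 retinal and lens genes was called, pde6ha, at -2.44 in pineal and -2.02 in brain. Of the 9 pineal photoreceptor genes, aanat2 (2.39) and rbp4l (-1.59) were called in pineal, and rbp4l was also called lower in brain. Of the 5 neuron genes, snap25b (0.42) was called in pineal. The sums do not tell a change of such genes from one in the cells sampled. The part of the marker sums in the falls was not tested.

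**Figure D2:**
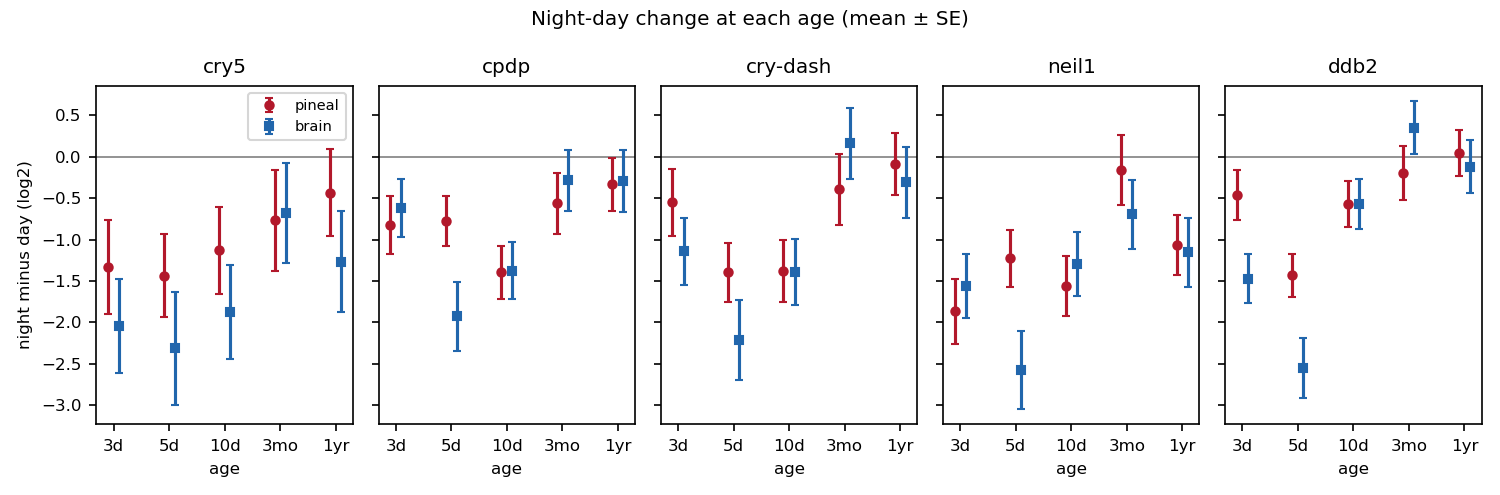
Night minus day difference (y axis, log2, with SE bars) at each age (x axis) for the 5 genes, in pineal (circles) and brain (squares). All 30 larval means lie below 0, and the lowest is neil1 in 5-day brain at -2.58; the adult means span -1.27 to 0.35.

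In adults the same comparison was not called for any of the 5 genes. Averaged over 3 months and 1 to 2 years, pineal differences ran from -0.61 ± 0.28 for neil1 to -0.07 ± 0.21 for ddb2, and 1 of the 5 had an unadjusted p below 0.05. Brain differences ran from -0.97 ± 0.43 for cry5 to 0.11 ± 0.23 for ddb2, and 2 of the 5 had an unadjusted p below 0.05. Without 1yr brain day replicate 3, which left the arrays of high GAPDH ratio as the day group at that age, neil1 was called in adult brain (-1.18, adjusted p = 0.0119). Of all probe sets, 0.542% were called lower in adult pineal and 0.355% in adult brain. At 3 months and at 1 to 2 years taken alone 0 of 5 genes were called in either tissue, beside 0.0968% and 0.232% of probe sets called lower in pineal and 0.103% and 0.226% in brain. Of the 6 adult brain day arrays, 4 had a GAPDH ratio above 3, against 0 of the 6 adult brain night arrays. At 1 to 2 years, brain day replicates 1 and 2 had ratios of 13.8 and 17.2, and there neil1 was at 9.68 and 9.70, against 8.16 on replicate 3. On the same 3 arrays cry5 was at 7.71, 6.96 and 5.61, and ddb2 at 8.72, 8.06 and 7.23.

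A test of the difference itself asked whether the night-day change was smaller in adults. For ddb2 in brain it was: adult minus larval change was 1.65 ± 0.29 (adjusted p = 0.00229, 95% interval 1.06 to 2.23), with 0.11% of probe sets called in that direction. Its change also varied over the 5 ages by limma's F-test (adjusted p = 8.76e-04, with 0.129% of probe sets called). In brain ddb2 went from -1.47 at 3 days, -2.55 at 5 days and -0.57 at 10 days to 0.35 at 3 months and -0.12 at 1 to 2 years. The other brain values were 1.51 ± 0.39 for cry-dash (adjusted p = 0.117), 1.101 ± 0.55 for cry5, 1.02 ± 0.34 for cpdp and 0.88 ± 0.38 for neil1. In brain 4 of 5 genes, ddb2 among them, had an unadjusted p below 0.05, a limit for which no share of all probe sets was counted. In pineal the 5 values lay between 0.55 ± 0.31 for cpdp and 0.94 ± 0.35 for neil1, and 0 of 5 genes were called (0.103% of probe sets), with 3 at an unadjusted p below 0.05. The F-test in pineal called 0 of 5 genes (0.258% of probe sets) and gave 3 an unadjusted p below 0.05. For these 9 values a smaller adult change did not pass the test, and their unadjusted 95% intervals do not exclude one. In both tissues the intervals of the values with an unadjusted p below 0.05 lay above 0. Among them were those of neil1 in pineal (0.24 to 1.63) and ddb2 in pineal (0.22 to 1.28).

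The night-day change was not shown to differ between pineal and brain for any of the 5 genes. The pineal change minus the brain change, averaged over ages, was 0.61 ± 0.36 for cry5, 0.35 ± 0.19 for ddb2, 0.28 ± 0.25 for neil1, 0.22 ± 0.26 for cry-dash and 0.12 ± 0.22 for cpdp. The smallest adjusted p was 0.902, and 0 of 5 had an unadjusted p below 0.05. At 5 days 0 of 5 were called and 3 had an unadjusted p below 0.05 (smallest adjusted p of 0.84, with 0.0258% of probe sets called). The 95% intervals reached from -0.11 to 1.34 for cry5 and from -0.32 to 0.57 for cpdp, so a weaker fall of cry5 in pineal by more than 2-fold remains within the error. Of all probe sets, 0.129% were called in this comparison.

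Levels also changed with age, and all but cpdp were highest at 10 days in both tissues. Averaged over day and night, ddb2 in pineal was at 7.97, 8.60, 9.98, 8.25 and 7.67 in order of age. In brain it was at 7.80, 9.10, 10.51, 7.82 and 7.94. The neighbouring steps from 5 to 10 days and from 10 days to 3 months exceeded the error in both tissues, by 1.38 ± 0.19 and -1.73 ± 0.21 in pineal and 1.41 ± 0.23 and -2.69 ± 0.22 in brain. From 5 to 10 days 3.1% of probe sets were called higher in pineal and 3.63% in brain. From 3 to 5 days ddb2 rose 2.46-fold in brain, with 1.63% of probe sets called higher, while the pineal difference of 0.63 ± 0.20 was below the 2-fold limit. From 3 months to 1 to 2 years 0 of 5 genes were called in either tissue (0.123% of probe sets in pineal, 0.0516% in brain), with 1 gene in pineal and 0 in brain at an unadjusted p below 0.05. A peak at 10 days was common: 25.1% of all probe sets had their highest pineal mean there, and 22.1% their highest brain mean.

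The gene cry-dash followed a like course, at 7.71, 8.51, 9.07, 7.47 and 7.18 in pineal and at 7.15, 8.41, 8.96, 6.72 and 7.01 in brain. From 10 days to 3 months it changed by -1.59 ± 0.28 in pineal and by -2.23 ± 0.29 in brain (adjusted p of 6.29e-06 and 1.13e-08). Its 3-to-5-day rise of 1.25 ± 0.31 in brain was called but lost without 5d brain night replicate 2. For cry5 the levels were 6.20, 6.42, 6.94, 5.78 and 5.75 in pineal and 6.18, 7.01, 7.31, 5.81 and 6.13 in brain. From 10 days to 3 months it changed by -1.17 ± 0.40 in pineal and by -1.5 ± 0.42 in brain, the pineal call being lost without 3mo pineal night replicate 1 or 2 and without further scaling (-0.66, adjusted p = 0.234). For cpdp they were 7.91, 8.20, 8.07, 7.004 and 7.10 in pineal and 7.82, 8.31, 8.25, 7.17 and 7.09 in brain, with no called step among the 3 larval ages. From 10 days to 3 months it changed by -1.06 ± 0.25 and -1.08 ± 0.25. These cpdp calls sat at the 2-fold limit: the pineal one was lost without 10d pineal day replicate 1, 10d pineal night replicate 3 or 3mo pineal night replicate 1, and the brain one without 10d brain day replicate 2. Without further scaling the pineal change was -0.68.

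The gene neil1 was higher in adult than in larval pineal by 0.46 ± 0.17 (adjusted p = 0.0249, below the 2-fold limit), and in brain the difference was -0.66 ± 0.19. No test compared its course with that of the other genes. Its pineal levels were 8.13, 8.04, 9.19, 8.77 and 9.05, and its brain levels 8.61, 8.91, 9.79, 8.27 and 8.60. From 5 to 10 days it rose by 1.14 ± 0.25 in pineal, a call lost to the 2-fold limit without 5d pineal day replicate 2 or 10d pineal night replicate 4. The rise was also below that limit with array weights (0.90) and without the arrays of high GAPDH ratio (0.99). From 10 days to 3 months it changed by -1.51 ± 0.29 in brain (adjusted p = 3.23e-05), and the pineal difference was -0.42 ± 0.28 (adjusted p = 0.257). The difference between these 2 steps was not tested.

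**Figure D3:**
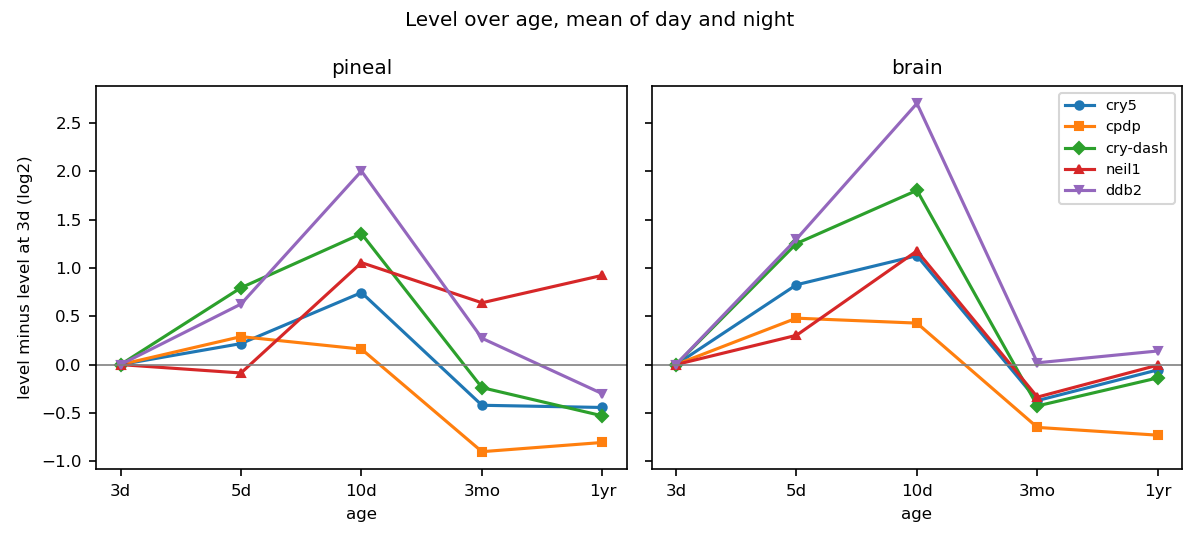
Level of each gene minus its own level at 3 days (y axis, log2, mean of day and night) against age (x axis), in pineal on the left and brain on the right. The curve of ddb2 reaches the highest point at 10 days, and from 10 days to 3 months it changes by -1.73 in pineal and -2.69 in brain.

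From 10 days to 3 months, 4 of 5 genes fell past both thresholds in pineal and 5 of 5 in brain, where 10% and 6.58% of probe sets did so. With an added constant of 64, cry5 in pineal (-0.75) and cpdp in pineal (-0.86) and brain (-0.90) missed the 2-fold limit. Each still had an adjusted p below 0.05. With median centring cry5 in pineal (-0.99, limma adjusted p = 0.0509) missed both thresholds. With the 2 adult ages set against the 3 larval ages, cry-dash (-1.102 ± 0.18) and cpdp (-1.004 ± 0.15) were called lower in adult pineal, where 7.13% of probe sets were, and cry-dash (-1.30 ± 0.20) and ddb2 (-1.25 ± 0.15) in adult brain, where 6.61% were. Without further scaling, with a constant of 64 or without the arrays of high GAPDH ratio, 0 of 5 genes passed the 2-fold limit in pineal, where cpdp lay at it. Without further scaling cry-dash was at -0.81 and cpdp at -0.65 there, both still with an adjusted p below 0.05. The makeup of the samples moved with age as well. In brain the 5 muscle markers were called lower in adults, with a median of -4.84, and so were the 5 skin markers. In pineal 8 of 9 photoreceptor markers were called higher in adults and 3 of 5 neuron markers lower. Their part in the levels of the 5 genes was not tested.

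In level, 0 of the 5 genes passed both thresholds between pineal and brain. Pineal minus brain, averaged over ages and times, was 0.34 ± 0.13 for cry-dash (adjusted p = 0.0335, below the 2-fold limit), -0.08 ± 0.11 for cpdp, -0.14 ± 0.10 for ddb2, -0.20 ± 0.13 for neil1 and -0.27 ± 0.18 for cry5. Of all probe sets, 5.79% were called. At an unadjusted p below 0.05 there was 1 of the 5, cry-dash. At single ages the smallest adjusted p was that of neil1 at 5 days, at -0.87 ± 0.29 (adjusted p = 0.0523), and it was 0.0325 without 5d brain night replicate 2.

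The second probe sets of cry5 and cry-dash were dimmer and gave smaller changes. The dimmer cry5 probe set, at a mean of 5.66 against 6.34, differed by -1.29 in brain (adjusted p = 0.0274) and differed by -0.18 in pineal (adjusted p = 0.853). The dimmer cry-dash probe set, at 6.29 against 7.87, differed by -0.40 in brain and by -0.43 in pineal, neither called. Over the 69 arrays the 2 probe sets of cry5 correlated at r = 0.38 and those of cry-dash at r = 0.59. Below 100 intensity units lay 56 of 69 values of the dimmer cry5 probe set and 53 of those of cry-dash. The pineal fall of cry5 and both falls of cry-dash at night thus rest on the brighter probe set. The levels over age given above are also those of the brighter probe sets. By limma's F-test over the 5 ages, the level of the dimmer cry5 probe set was not called in pineal (adjusted p = 0.105) or brain (adjusted p = 0.237). That of the dimmer cry-dash probe set was called in pineal (adjusted p = 4.8e-04) but not in brain (adjusted p = 0.116). Its brain level was 6.82 at 10 days and 5.78 at 3 months.

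Over the 20 group means the 5 genes correlated with each other, with the closest pair, cry-dash and ddb2, at a Pearson r of 0.91 and the farthest, cpdp and neil1, at 0.61. All 20 means share the ages, tissues and times of the design, so these are descriptions. Among 8792 other genes, ddb2 ranked highest in likeness to cry-dash, followed by prelid3b (0.90) and wdr76 (0.89). For cry5 the most alike were dhrs12 (0.89), prxl2b (0.88) and cpdp (0.88), and for cpdp prxl2b (0.93), khdc4 (0.91) and cry5. For ddb2 they were mknk1 (0.93), cry-dash and igfbp1b (0.90). For neil1 they were cox17 (0.88), the light-induced clock gene per2 (0.86) and cry5 (0.83). Not all of the 5 ranked high for each other: neil1 stood at rank 244 for cry-dash and at rank 228 for cpdp.

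Genes of other DNA repair lists were read against the 1.3% of all probe sets called lower at night in pineal and the 0.548% in brain, and their counts lay near those shares. Of 19 measured genes listed under nucleotide excision repair, 1 was lower at night in pineal and 0 in brain. It was the centrin gene cetn4, at -0.97 ± 0.16. In this list 1 gene was also called for a pineal night-day change below its brain change, beside 0.0258% of all probe sets. The lowest such difference in the list, -1.30, was that of cetn4. None of 9 base excision repair genes besides neil1 was called in either tissue, nor were any of 3 mismatch repair genes, 13 double-strand break repair genes or 10 genes of the DNA damage response. The list medians lay between -0.21 and 0.02 in pineal and between -0.23 and 0.20 in brain. Over the 5 genes the median was -0.78 in pineal and -0.98 in brain, and over all probe sets it was 0.00 in each. The 5 genes and the lists were chosen with earlier results of these data known, so this contrast is a description only. The cryptochrome and clock list had 4 of 18 genes lower at night in pineal, among them the clock repressor per2 (-2.59 ± 0.27), the clock activator bmal1a (-1.17 ± 0.26) and the cryptochrome cry1b (-0.83 ± 0.20). In brain 3 of 18 were lower, per2 (-2.57 ± 0.29), cry1b (-0.94 ± 0.22) and tefa (-0.50 ± 0.11), which encodes a transcription factor of the bZIP class.

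**Figure D4:**
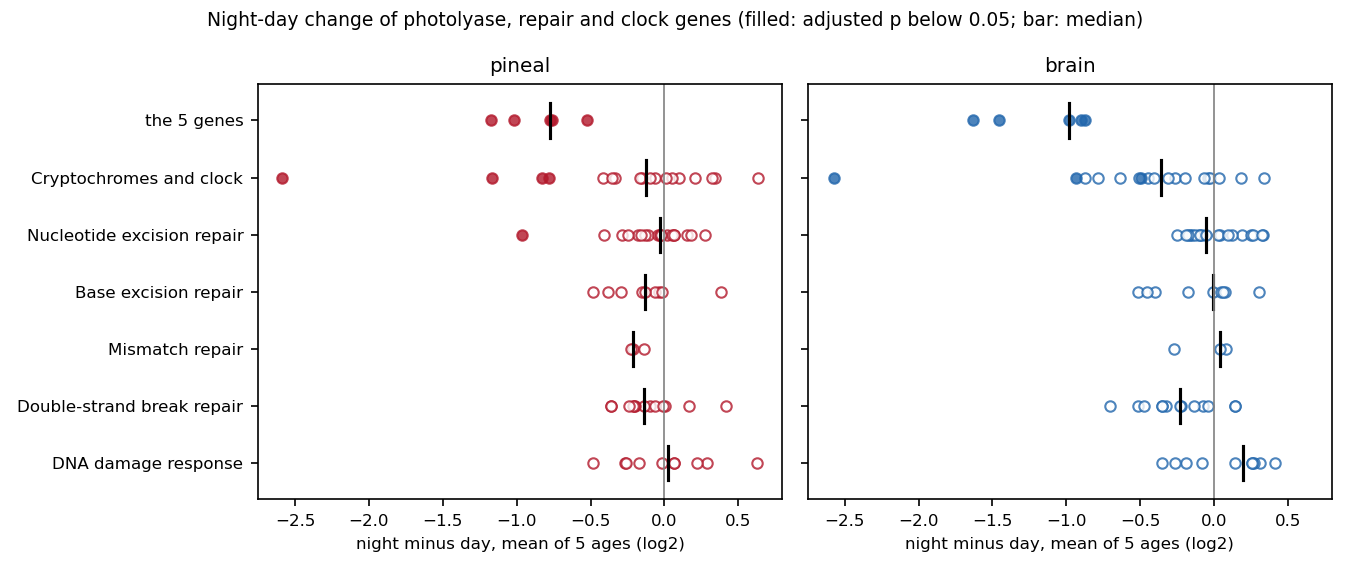
Night minus day difference averaged over the 5 ages (x axis, log2) for the 5 genes and for the other repair and clock genes by list (y axis), in pineal on the left and brain on the right. Each circle is a gene, filled where adjusted p was below 0.05, and bars are medians; the medians of the 5 genes lie at -0.78 and -0.98, and those of the 5 repair and damage lists between -0.23 and 0.20.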

How the data were processed

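Expression was measured on 69 Affymetrix arrays. The authors deposited 1 intensity per probe set and array on a linear scale; the values have trimmed means (2% off each end) between 500.1 and 500.2, and how the probes were summarized is not given in the labels or files used here. The number of arrays limits the precision. After 115 control probe sets were left out, 15502 remained, of which 10795 carried 1 gene symbol, 135 several and 4572 none. From the deposited intensity, log2(intensity + 16) was taken and quantile normalized. A mean per group was fitted for 20 groups in limma 3.58.1 (R 4.3.3; eBayes with trend; 49 residual and 14.3 prior degrees of freedom), with Benjamini-Hochberg adjustment over 15502 probe sets and two-sided tests. The fit was run on simulated data with independent normal noise and a set night shift in pineal for some probe sets. These held no degraded arrays and no differences between ages or tissues otherwise. That run checks the computation only and says nothing about the calls given here. The genes and lists were chosen with earlier results of these data known. The 3 genes named as most alike were those of highest correlation over group means, and up to 3 called genes of smallest adjusted p were named per list. Nothing says that arrays of a group came from separate fish pools, so p-values measure the spread between arrays, which may be technical. To look for pairing, each group's mean was taken off every probe set and the remainders were correlated between arrays. Remainders of same-numbered arrays correlated above 0.1 in 2 of 32 night-day pairs and 11 of 31 pineal-brain pairs. Those of differently numbered arrays did so in 7 of 89 and 10 of 87. Same-numbered pineal and brain arrays may thus share an origin, which the labels do not give. The main fit did not use the numbers as pairs. Alternatives covered scaling, the constant, a filter, weights, RNA quality, single arrays and ages. No sequences were analysed here.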

Additional observations from a re-analysis of the deposited data

Results flagged for a closer look

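Within the groups of 4 or 5 arrays, 5 values stood far from the rest of their group by Dixon's 95% limit, among 63 combinations of a probe set and a group tested, where chance gives about 1 in 20. On 3d brain night replicate 3, cry5 was at 6.49 with the other arrays at 4.54 to 4.84, and cry-dash was at 5.69 with the others at 6.82 to 6.91. On 5d pineal night replicate 2, neil1 was at 8.21 with the others at 7.10 to 7.28. On 1yr pineal day replicate 2, cpdp was at 7.69 with the others at 7.10 to 7.15. On 1yr pineal day replicate 4, ddb2 was at 7.998 with the others at 7.50 to 7.56. No explanation of these was tested.

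The night-day change of ddb2 in brain differed between ages. Its adult change minus its larval change was 1.65 on the log2 scale, and limma's F-test over the 5 ages gave an adjusted p of 8.76e-04.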

How the results depend on the processing

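With 5 of 5 genes called lower at night over all ages in each tissue, brain kept 2 without the 11 arrays of GAPDH ratio above 3 and 3 without the 5-day arrays. Pineal kept 2 without the 5-day and 3 without the 10-day arrays. Over adult ages alone, added after the data were seen, 0 were called in each tissue. Of single gene-age pairs, 5 in pineal became 2 with pineal arrays only, and 5 in brain became 12 with array weights. The change of 1 gene that differed between adult and larval brain became 2 with brain arrays only, 3 with array weights and 2 with the GAPDH ratio as a covariate, and the F-test's 1 became 4 with array weights. Genes differing in level between adults and larvae went from 2 to 0 in pineal without further scaling, with a constant of 64 and without arrays of high GAPDH ratio. In brain they went from 2 to 4 with a constant of 1. The replicate block cannot decide a difference in level between ages, because its blocks lay within ages. Apart from leaving out single arrays, signs were followed for called values, and for the night-day change and pineal-brain level averaged over all ages. Of these, 1 value changed sign, the pineal-minus-brain level of cpdp, to 0.051 without further scaling, from -0.077, neither called. The signs of the other values with no call were not followed there. With 1 array left out, single-age pairs ranged from 2 to 6 in pineal and from 2 to 6 in brain, and level calls from 1 to 2 in pineal and from 2 to 3 in brain. Counts over all ages stayed at 5 in each tissue, and those for the adult-larval change, its F-test and the pineal-brain differences over all ages did not move either. In the same runs 31 values with no call crossed 0, among them ddb2 in adult pineal (-0.14 to 0.034). Arrays that decided single calls are named beside them. The causes were not tested.

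Over all probe sets, 409 were called in pineal between night and day, and 235 with pineal arrays only, 251 without 3 days and 228 without 1 to 2 years. In brain 143 were called, and 82 with median centring, 372 with brain arrays only, 1451 with array weights, 51 with the GAPDH covariate, 38 without arrays of high ratio, 90 without a trend, and 69, 242, 66 and 85 without 3 days, 5 days, 3 months and 1 to 2 years. The replicate block gave 252 in brain and kept the 10 calls over all ages. Under it 7 of the called level steps were lost. Its blocks lay within ages, so a step between ages in that fit compares single replicate numbers and not mean levels. That loss therefore says nothing about the steps. Whether the numbers pair the arrays is not given in the labels. The filter at a mean intensity of 100 dropped cry5 (mean 93.8), so its counts cover 4 genes.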
